A study of Mus musculus with 13 samples.

Results

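The genes described here encode proteins that anchor the nuclear lamina and the cytoskeleton to the nuclear envelope. They were chosen by name, as the gene table rows whose Ensembl identifiers belong to 10 symbols, and all 10 were found among the 33618 genes counted. They are the inner nuclear membrane and chromatin tether genes *Emd*, *Lbr*, *Tmpo*, *Banf1*, *Lemd2* and *Lemd3*, and the LINC complex genes *Sun1*, *Sun2*, *Syne1* and *Syne2*. All 10 passed the filter on low counts, which left 16753 genes to test.

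The lamina is a meshwork of lamin filaments under the inner nuclear membrane. Emerin (*Emd*), LAP2 (*Tmpo*), LEMD2 and MAN1 (*Lemd3*) share a LEM domain that binds BAF (*Banf1*), a small DNA-binding protein, and so tie chromatin to the membrane. The lamin B receptor (*Lbr*) holds heterochromatin through B-type lamins and HP1 proteins and is also a sterol reductase. SUN proteins cross the inner membrane, bind lamin A/C and pair in the space between the membranes with nesprins (*Syne1*, *Syne2*), which reach actin and other cytoskeletal filaments. Variants in *LMNA*, *EMD*, *SYNE1* and *SYNE2* are linked to Emery-Dreifuss muscular dystrophy, and *LMNA* variants also cause familial partial lipodystrophy 2.

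Whole parametrial white adipose tissue (pmWAT) of *Lmna* fl/fl mice was compared with that of *Lmna* iADKO mice to ask how loss of lamin A/C in adipocytes changes the tissue. Both groups carried floxed *Lmna* alleles and both received tamoxifen at 50 mg/kg on 5 days at 12 to 14 weeks of age, and tissue was taken 2 weeks later. The iADKO mice also carried Adipoq-CreERT2, a tamoxifen-activated Cre under the promoter of the adipocyte gene *Adipoq*, which the fl/fl controls lacked, so effects of Cre itself and of the deletion cannot be told apart. One library per sample was made from 7 fl/fl and 6 iADKO samples. The labels number the samples without stating in words that each came from a different animal, so p-values measure the spread between these libraries.

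Counts on genes ranged from 19147428 to 19776491 per library in fl/fl and from 18854223 to 19569221 in iADKO. Counts were scaled to CPM, counts relative to library size after TMM normalisation, whose factors were 0.892 to 1.02 in fl/fl and 1.05 to 1.10 in iADKO. *Lmna* itself, the targeted gene, was at 74.7, 83.5 and 98.5 CPM (lowest, median and highest library) in fl/fl and at 80.1, 96.8 and 109 CPM in iADKO. The edgeR estimate was 0.19 on the log2 scale (standard error 0.079, adjusted p = 0.0785). In the 24 alternative fits given below it stayed positive, at 0.13 to 0.25, and *Lmna* was called higher in 3. No loss of *Lmna* counts was thus seen under the iADKO label, and every direction below rests on the labels. The counts cover the whole gene and do not separate the floxed exons, and other cells of the tissue keep *Lmna*. All 7 adipocyte markers, *Adipoq*, *Plin1*, *Lep*, *Cidec*, *Fabp4*, *Lipe* and *Pnpla2*, were lower in iADKO, and their summed level was 10850 to 20250 CPM in fl/fl and 7122 to 12560 CPM in iADKO. Of 9 macrophage markers, 6 were higher and none lower, with a summed level of 1045 to 1992 CPM in fl/fl and 1363 to 2299 CPM in iADKO. In both sums fl/fl replicate 5 and iADKO replicate 6 lay nearest the other group. In whole tissue, fewer cells of a type and less RNA per cell cannot be told apart, and the part of cell composition in the results below was not tested.

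Across all tested genes, edgeR's quasi-likelihood test with Benjamini-Hochberg adjustment called 30.5% different at an adjusted p under 0.05, of which 14.1% of tested genes were higher and 16.3% lower in iADKO. Of the 10 envelope genes, 3 were higher (*Emd*, *Lbr* and *Tmpo*), 1 was lower (*Sun1*) and 6 were not called. The called share was therefore near that of all genes, and the changes were small: the 10 log2 fold changes lay between -0.20 and 0.26, against a median absolute log2 fold change of 0.207 over all tested genes and 0.422 over those called. Their median was 0.065, beside 0.033 for all genes. The CPM of the groups did not overlap for 6.64% of tested genes, and for none of these 10.

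Among these 10 genes, most of them not called, the signs divided along the membership of the complexes. The 6 tether genes all had positive log2 fold changes (3 called, median 0.15), and the 4 LINC genes all had negative ones (1 called, median -0.17). These signs held for all 10 genes under each of the 24 alternative fits, other scalings included, except that *Lemd3* was at -0.012 when fl/fl replicate 5 and iADKO replicate 6 were both left out. As a description of this split, the mean log2 CPM of the tether genes minus that of the LINC genes was -2.25, -2.17 and -1.83 (lowest, median and highest library) in fl/fl and -1.98, -1.81 and -1.65 in iADKO. Only fl/fl replicate 7, at -1.83, reached into the iADKO range. Within fl/fl it had the highest *Emd*, *Banf1* and *Lemd2* and the lowest *Sun1*, *Syne1* and *Syne2*. Canonical transcripts were 1602 to 5322 bases long for the tether genes and 3838 to 28591 bases for the LINC genes. The part of transcript length or RNA quality in the split was not tested. Nor are the 4 LINC signs separate observations, as *Syne1* and *Syne2* (r = 0.924) and *Sun1* and *Sun2* (r = 0.642) varied together, as described below. The 24 fits reuse the same libraries, and *Sun2*, *Syne1* and *Syne2* changed sign between the 2 runs of library numbers described below. Lists of similar genes did not all divide this way. Positive log2 fold changes were found for 2 of 4 other SUN and KASH genes (median 0.093), 6 of 10 other envelope membrane genes and all 4 other LEM domain and BAF kinase genes tested.

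**Figure D1:**
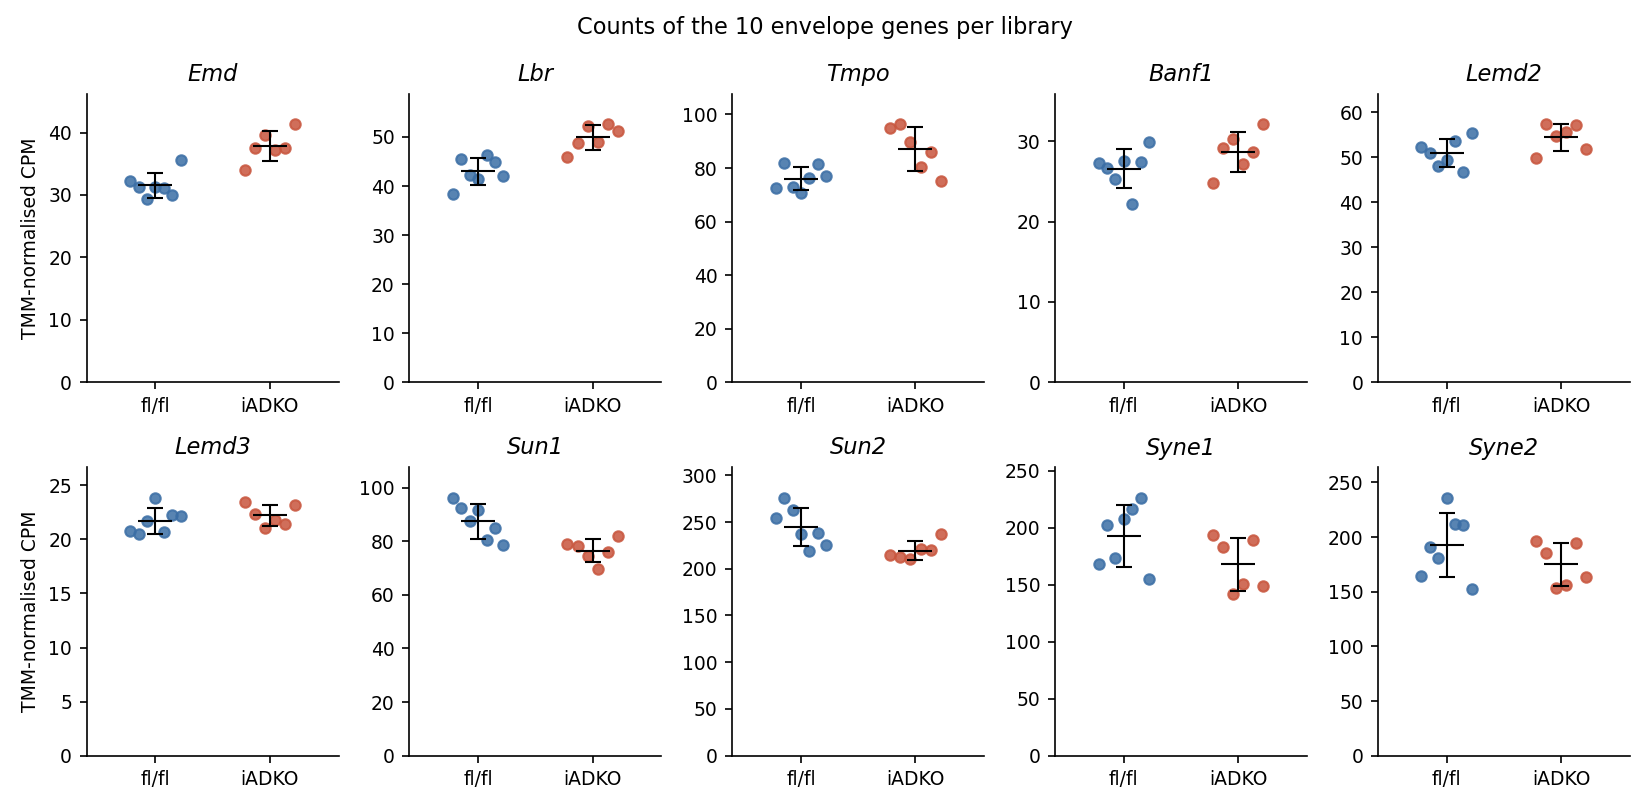
TMM-normalised CPM (y axis, from 0, own scale per gene) of the 10 genes in each library, with 7 fl/fl points in blue and 6 iADKO points in red, and the mean and SD in black. *Emd* and *Lbr* each have 5 of 6 iADKO libraries above the highest fl/fl library, *Sun1* has 4 of 6 below the lowest, and in every panel the groups overlap.

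The bases before a RefSeq transcription start of each of the 4 called genes are shown because these are the members whose counts moved. They are the 250 bases upstream of the most 5′ start that RefSeq lists (table on GRCm38.p6), placed on GRCm39 by an exact, single match and written 5′ to 3′ on the gene's strand. Capitals mark the Sp1 GC box (GGGCGG or CCGCCC) and the CCAAT box (CCAAT or ATTGG). The *Emd* window is chrX:73298043-73298292 on the plus strand, *Lbr* chr1:181669967-181670216 on the minus strand, *Tmpo* chr10:91007482-91007731 on the minus strand and *Sun1* chr5:139186142-139186391 on the plus strand. Their last bases lie 7, 357, 159 and 422 bases past the start of the GENCODE canonical transcript, respectively. The 250-base windows of *Lbr* and *Sun1* therefore lie wholly past that start and show no base before it. The *Tmpo* window reaches past it in part, and that of *Emd* by these 7 bases only.
Emd: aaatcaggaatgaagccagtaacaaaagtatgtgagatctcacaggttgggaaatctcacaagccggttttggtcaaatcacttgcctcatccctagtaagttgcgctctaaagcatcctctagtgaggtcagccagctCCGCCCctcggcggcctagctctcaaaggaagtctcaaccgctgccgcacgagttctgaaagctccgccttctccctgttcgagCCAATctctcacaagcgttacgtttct
Lbr: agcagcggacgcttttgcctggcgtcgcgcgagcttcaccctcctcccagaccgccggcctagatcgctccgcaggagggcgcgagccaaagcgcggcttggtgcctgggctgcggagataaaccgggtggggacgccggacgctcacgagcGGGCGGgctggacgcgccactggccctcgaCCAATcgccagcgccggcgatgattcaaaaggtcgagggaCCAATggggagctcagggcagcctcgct
Tmpo: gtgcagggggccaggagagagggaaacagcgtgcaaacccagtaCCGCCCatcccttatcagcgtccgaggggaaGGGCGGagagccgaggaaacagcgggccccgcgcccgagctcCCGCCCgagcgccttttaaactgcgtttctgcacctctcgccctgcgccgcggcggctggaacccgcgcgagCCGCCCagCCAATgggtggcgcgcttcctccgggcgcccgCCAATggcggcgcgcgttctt
Sun1: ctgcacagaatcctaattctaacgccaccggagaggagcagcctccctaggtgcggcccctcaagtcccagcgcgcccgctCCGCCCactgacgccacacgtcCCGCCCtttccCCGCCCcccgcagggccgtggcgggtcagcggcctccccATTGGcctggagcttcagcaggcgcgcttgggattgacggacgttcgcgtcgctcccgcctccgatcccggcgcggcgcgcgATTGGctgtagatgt
Both motifs were present in all 4 windows. Of the 9 members with a RefSeq window (*Lemd2* had no entry), the GC box was in 9 and the CCAAT box in 7, while 32.7% and 33.8% of the 32851 upstream windows in the table held them. The windows of *Banf1* and *Lemd3* also lay wholly past their canonical starts, ending 710 and 581 bases past them. The GC content of the windows was 51.2% in *Emd*, 69.6% in *Lbr*, 70.8% in *Tmpo* and 70% in *Sun1*, beside a median of 52.4% over all windows, and a GC box is found more easily in GC-rich sequence. TATAAA, the TATA box, was in none of the 9 and in 12.4% of all windows. These matches describe letters and show no binding.

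*Emd* (chromosome X, 73298286 to 73305169, plus strand, GRCm39 here and below) had the largest rise of the 10. It was at 29.4, 31.2 and 35.6 CPM in fl/fl and at 34.0, 37.5 and 41.3 CPM in iADKO. The ranges overlapped only through fl/fl replicate 7 and iADKO replicate 1, and 5 of 6 iADKO libraries were above every fl/fl library. *Emd* averaged 31.6 ± 2.02 CPM in fl/fl (SD, n = 7) against 37.9 ± 2.47 CPM in iADKO (SD, n = 6). This was 1.20-fold, or 0.26 on the log2 scale (standard error 0.056, adjusted p = 0.00368, edgeR). The exact two-sided permutation p was 0.00175, and the smallest that 7 against 6 libraries allow is 0.000583. *Emd* stayed past the threshold with each of the 13 libraries left out in turn. An exon of the pseudogene *Gm14686* shares 343 bases with *Emd* on the same strand and has no row of its own, so reads from it could not be told apart.

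*Lbr* (chromosome 1, 181641631 to 181672984, minus strand) was at 38.3, 42.3 and 46.4 CPM in fl/fl and at 45.8, 50.1 and 52.6 CPM in iADKO. Again 5 of 6 iADKO libraries exceeded the highest fl/fl library, and iADKO replicate 1 was the exception. The log2 fold change was 0.22 (standard error 0.052, adjusted p = 0.00781, edgeR), and the call held with each library left out. With 1 surrogate variable in the fit it was 0.17 (adjusted p = 0.105, edgeR). *Lbr* overlaps *Dnah14* on the opposite strand over 1391 exonic bases, but *Dnah14* had between 1 and 6 counts per library.

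*Tmpo* (chromosome 10, 90983375 to 91017177, minus strand) encodes both the membrane-bound LAP2 forms and the nucleoplasmic LAP2alpha that binds lamin A/C, and gene counts do not separate them. It was at 70.7, 76.4 and 81.9 CPM in fl/fl and at 75.0, 87.9 and 96.3 CPM in iADKO. In iADKO, 4 of 6 libraries were above every fl/fl library, and replicate 6 lay below the fl/fl median. The log2 fold change was 0.19 (standard error 0.063, adjusted p = 0.0308, edgeR). The call lay near the threshold. It was lost in 6 of the 13 edgeR fits that left out 1 library (fl/fl replicates 1, 3 and 4 and iADKO replicates 1, 2 and 3), with an adjusted p of up to 0.0699. In those fits the log2 fold change lay between 0.165 (without iADKO replicate 2) and 0.186 (without iADKO replicate 3). With limma on the deposited rlog values the adjusted p was 0.0526. Of 6 proliferation markers, 4 were higher in iADKO and none lower, with a summed level of 24.2 to 44.2 CPM in fl/fl and 36.1 to 58.1 CPM in iADKO. Their part in the *Tmpo* difference was not tested.

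The other 3 tether genes were not called. *Banf1* (chromosome 19, 5414660 to 5417614, minus strand) was at 22.2, 27.4 and 29.9 CPM in fl/fl and at 24.9, 28.9 and 32.1 CPM in iADKO. Its log2 fold change was 0.11 with a 95% confidence interval of -0.045 to 0.26 (adjusted p = 0.263, edgeR). *Banf1* shares 1192 exonic bases with *Eif1ad* on the opposite strand, a gene with 440 to 574 counts per library and a log2 fold change of 0.054 (adjusted p = 0.483, edgeR). The strand setting of the counting is not given in the sources used here, so reads of this pair may be shared.

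*Lemd2* (chromosome 17, 27408573 to 27423465, minus strand) was at 46.8, 51.0 and 55.4 CPM in fl/fl and at 49.9, 55.1 and 57.3 CPM in iADKO, with 3 of 6 iADKO libraries above the fl/fl range. Its log2 fold change was 0.095 (95% interval -0.016 to 0.21, adjusted p = 0.176, edgeR). *Lemd3* (chromosome 10, 120759304 to 120815816, minus strand), whose product MAN1 also restrains SMAD signalling, was at 20.5, 21.7 and 23.8 CPM in fl/fl and at 21.1, 22.1 and 23.5 CPM in iADKO. The iADKO range lay wholly inside the fl/fl range, and the log2 fold change of 0.036 had the narrowest 95% interval of the 10, -0.073 to 0.14 (adjusted p = 0.619, edgeR).

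**Figure D2:**
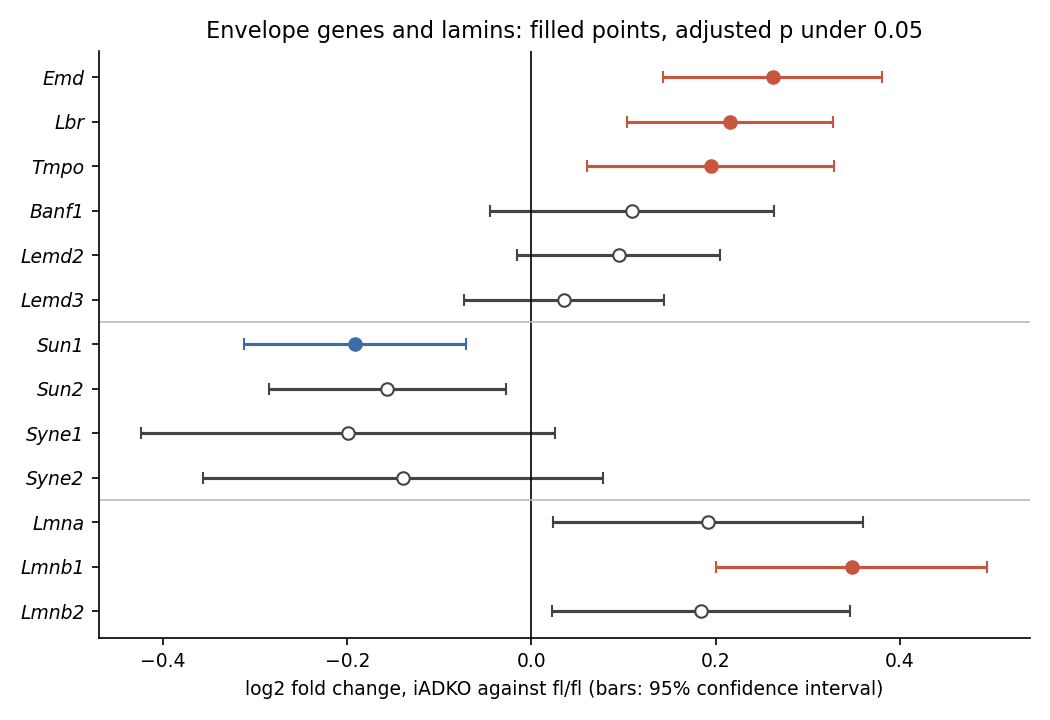
Log2 fold change of iADKO against fl/fl (x axis) with its 95% confidence interval, not adjusted for multiple testing, for the 6 tether genes, the 4 LINC genes and the 3 lamins, in that order from the top. Filled red points (*Emd*, *Lbr*, *Tmpo*, *Lmnb1*) and the filled blue point (*Sun1*) have an adjusted p under 0.05, and open points do not.

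On the LINC side, *Sun1* was lower in iADKO and the other 3 genes were not called. *Sun1* (chromosome 5, 139185970 to 139235606, plus strand) was at 78.5, 87.6 and 96.2 CPM in fl/fl and at 69.6, 77.0 and 81.9 CPM in iADKO. In iADKO, 4 of 6 libraries fell below every fl/fl library and none reached the fl/fl median. The log2 fold change was -0.19 (standard error 0.057, adjusted p = 0.0201, edgeR), with an exact permutation p of 0.00699. Leaving out iADKO replicate 4, the lowest library, ended the call (adjusted p = 0.0543, edgeR), and it held in the other 12 such fits. With 1 surrogate variable in the fit, its log2 fold change was -0.088 (adjusted p = 0.362, edgeR).

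*Sun2* (chromosome 15, 79608271 to 79626768, minus strand) was at 218, 239 and 276 CPM in fl/fl and at 210.0, 218 and 237 CPM in iADKO. No iADKO library reached the fl/fl median, and 3 of 6 lay below the fl/fl range. The log2 fold change of -0.16 (standard error 0.06) did not pass in edgeR (adjusted p = 0.062), while DESeq2 gave an adjusted p of 0.0207, limma on the rlog values 0.0441 and edgeR with DESeq2's size factors 0.0472. It passed in 7 of 24 alternatives, and its log2 fold change was -0.13 (adjusted p = 0.407, edgeR) with the library-number run as a block and -0.051 (adjusted p = 0.655, edgeR) with 1 surrogate variable. On simulated counts, 16.2% of DESeq2's calls were false, against 5.56% of edgeR's. Those counts were drawn with edgeR's scaling and dispersions and few genes were changed, so these shares do not carry over to these data. Without fl/fl replicate 5 and iADKO replicate 6, the log2 fold change of *Sun2* was -0.23 (adjusted p = 0.0047, edgeR). These are the libraries whose marker levels lay nearest the other group, and leaving them out was a choice made after seeing the data. The difference between *Sun1* and *Sun2* was tested within libraries: the log2 ratio of *Sun1* to *Sun2* counts was -1.48 ± 0.083 (SD, n = 7) in fl/fl and -1.52 ± 0.083 (SD, n = 6) in iADKO, a difference of -0.037 (exact two-sided permutation p = 0.426). A difference in response between the SUN genes was thus not detected.

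The nesprin genes varied most between libraries of a group. *Syne1* (chromosome 10, 4970266 to 5501482, minus strand) was at 155, 202 and 226 CPM in fl/fl and at 142, 167 and 194 CPM in iADKO. *Syne2* (chromosome 12, 75864908 to 76157700, plus strand) was at 152, 191 and 236 CPM in fl/fl and at 153, 174 and 196 CPM in iADKO. Their log2 fold changes were -0.20 (95% interval -0.42 to 0.025, adjusted p = 0.162) and -0.14 (-0.36 to 0.078, adjusted p = 0.312) by edgeR. The interval of *Syne1* still holds a change as large as that of any called member.

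The nesprin pair rose and fell together from library to library. Over the 13 libraries, after subtracting group means of log2 CPM, Pearson's r between *Syne1* and *Syne2* was 0.924 (permutation p = 6e-05, 0.00012 after adjustment over the 2 pairs examined) and Spearman's rho was 0.874 (permutation p = 0.00038, adjusted 0.00076). Without the 2 libraries farthest from the median of *Syne1*, r was 0.882. Within groups r was 0.902 in fl/fl (exact permutation p = 0.00952, n = 7) and 0.985 in iADKO (exact permutation p = 0.00833, n = 6). For *Sun1* and *Sun2*, r was 0.642 (permutation p = 0.0173, adjusted 0.0173) and rho 0.615 (permutation p = 0.0289, adjusted 0.0289), and r was 0.695 without the 2 farthest libraries. Within groups this relation did not pass, with r = 0.744 in fl/fl (exact permutation p = 0.0603, n = 7) and r = 0.356 in iADKO (exact permutation p = 0.486, n = 6). The highest and lowest fl/fl libraries for *Syne1* were replicates 6 and 7.

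**Figure D3:**
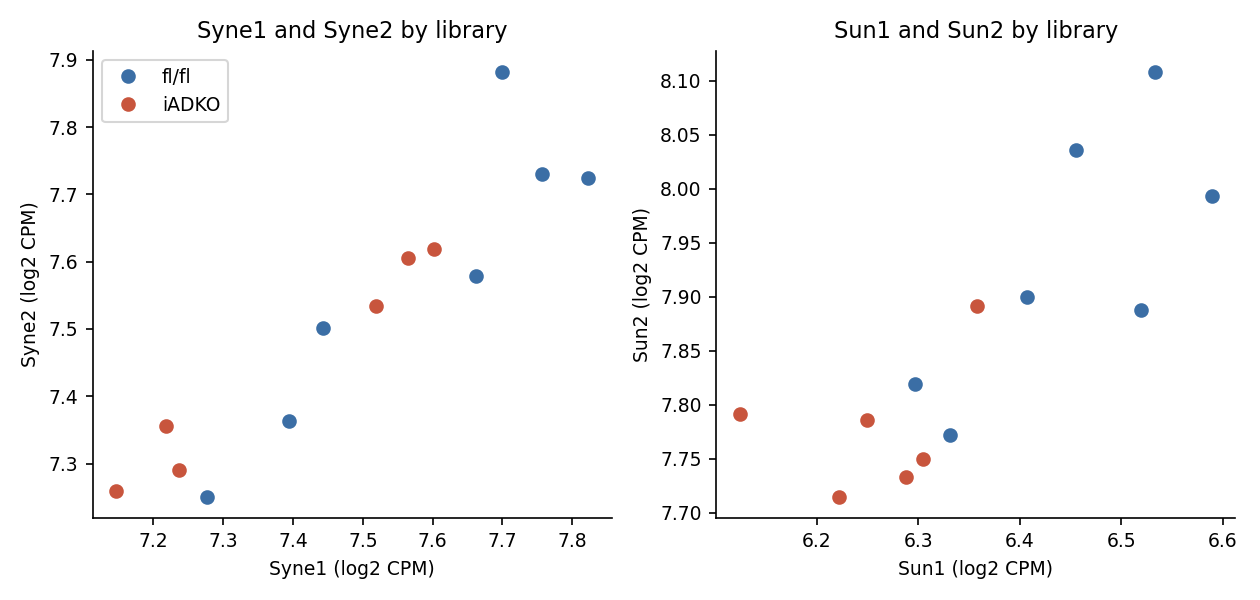
Log2 CPM of *Syne2* against *Syne1* (left) and of *Sun2* against *Sun1* (right), each point 1 library, fl/fl blue and iADKO red. The nesprin points lie along a line in both groups, and most iADKO points lie at the lower left of the SUN panel.

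The log2 ratio of *Syne1* to *Syne2* was 0.0034 ± 0.096 (SD, n = 7) in fl/fl and -0.063 ± 0.051 (SD, n = 6) in iADKO, with an exact two-sided permutation p of 0.16. Leaving out fl/fl replicate 4, which had the most *Syne2*, changed this to p = 0.0152 by the same exact test with a difference of -0.097. The log2 ratio of *Lbr* to *Lmna*, which tether chromatin in parallel, was -0.98 ± 0.21 (SD, n = 7) and -0.95 ± 0.19 (SD, n = 6), with an exact permutation p of 0.805.

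The numbers in the library names fall into runs, taken here as numbers no more than 10 apart, and only 2 runs hold both groups. All libraries carry 1 batch label, and what a run stands for is not stated. Within the run 722 to 727 (2 fl/fl, 2 iADKO) and the run 747 to 750 (3 fl/fl, 1 iADKO), the difference in mean log2 CPM was 0.33 and 0.28 for *Emd*, 0.19 and 0.22 for *Lbr*, 0.079 and 0.35 for *Tmpo*, and -0.18 and -0.24 for *Sun1*. These called genes kept their signs in both runs. *Banf1* (0.26 and 0.14), *Lemd2* (0.060 and 0.18) and *Lemd3* (0.021 and 0.090) did so too. *Sun2* (0.011 and -0.31), *Syne1* (-0.50 and 0.020) and *Syne2* (-0.48 and 0.053) changed sign between the runs. With the run as a block, none of the 10 genes passed in edgeR, where 4 had an unadjusted p under 0.05. The called genes' log2 fold changes were then 0.31 for *Emd* (adjusted p = 0.0745), 0.20 for *Lbr* (0.143), 0.20 for *Tmpo* (0.169) and -0.21 for *Sun1* (0.151), near their values without the block.

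Levels of different genes were compared per length, as CPM per kb of the GENCODE canonical transcript. *Sun2* stood highest in fl/fl at 63.7 ± 5.3 CPM per kb (SD, n = 7), with its lowest library at 56.9, above every other gene's highest. *Emd* (19.7 ± 1.3), *Tmpo* (19.2 ± 1.1), *Lemd2* (19.2 ± 1.2) and *Sun1* (19.1 ± 1.4) followed with overlapping ranges, and *Banf1* (15.8 ± 1.4) overlapped only the lower ends of *Lemd2* and *Sun1*. *Syne2* (8.85 ± 1.3), *Lbr* (8.34 ± 0.54) and *Syne1* (6.74 ± 0.94) overlapped with their neighbours, and *Lemd3* was lowest at 4.08 ± 0.22 CPM per kb, its highest library at 4.48 and the lowest of *Syne1* at 5.42. In iADKO, *Sun2* was again highest (57.2 ± 2.5) and *Lemd3* lowest (4.18 ± 0.18), and *Sun1* (16.8 ± 0.92) lay below all of *Emd*'s range. Below *Sun2*, the order depends on the length used. Over the union of annotated exons, *Sun2* stayed highest at 37.2 ± 3.1 in fl/fl, *Banf1* (9.57 ± 0.86) came before *Emd* (8.52 ± 0.54), and *Lbr* was lowest at 3.68 ± 0.24. *Syne1* and *Syne2* have canonical transcripts of 28591 and 21771 bases, and per-length levels of all genes depend on which forms were present, which gene counts do not show.

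**Figure D4:**
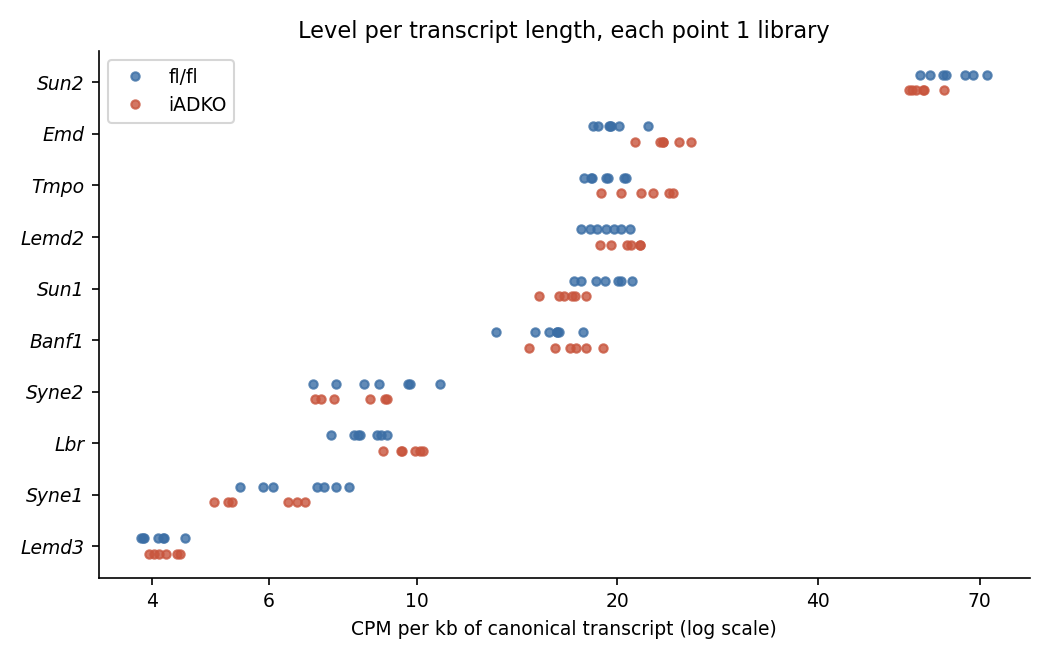
CPM per kb of canonical transcript (x axis, log scale) for the 10 genes, each point 1 library, fl/fl blue and iADKO red, ordered by the fl/fl mean. *Sun2* stands apart at the top, *Lemd3* at the bottom, and the ranges of *Emd*, *Tmpo*, *Lemd2* and *Sun1* overlap in fl/fl.

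For each member, the gene most like it was taken as the one with the highest Pearson r over the 13 libraries, after group means were subtracted, among 13854 tested genes whose mean log2 CPM was 1 or more. The best match was *Sf3b6* for *Emd* (r = 0.908), *Zfp677* for *Lbr* (0.883), *Pprc1* for *Tmpo* (0.901), *Clpp* for *Banf1* (0.951), *Nr2c2ap* for *Lemd2* (0.904), *Magix* for *Lemd3* (0.835), *Atrnl1* for *Sun1* (0.93), *Rassf3* for *Sun2* (0.932) and *Lratd2* for *Syne1* (0.934). Only *Syne2* had another member, *Syne1*, as its best match. These are the highest of many values over few libraries and are given as a description. Among all pairs of members over the same 13 libraries, *Emd* and *Banf1* had the highest r after the nesprins (0.74). The lowest was that of *Emd* and *Syne1* (-0.676). *Emd* also ran against *Syne2* (-0.62), and *Banf1* against *Syne1* (-0.527) and *Syne2* (-0.452). Canonical transcripts are shortest for *Emd* and *Banf1* (1602 and 1685 bases) and longest for the nesprins, and the part of length was not tested.

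The other genes of the envelope were taken from 8 lists, the lamins among them. Without *Lmna*, 46 of their 51 genes were tested, of which 5 were higher, 10 lower and 31 not called, with a median log2 fold change of 0.0079. The called share was near the 30.5% of all tested genes. Among the lamins, *Lmnb1*, a B-type lamin that *Lbr* binds, was at 12.3, 13.6 and 15.2 CPM in fl/fl and at 15.9, 16.9 and 20.3 CPM in iADKO, without overlap. Its log2 fold change was 0.35 (standard error 0.069, adjusted p = 0.00252, edgeR). *Lmnb2* had 0.18 (adjusted p = 0.0787, edgeR).

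Of the 5 genes in the list of *Lbr* partners and sterol enzymes, 2 were lower and 3 not called. *Tm7sf2*, the other sterol C14 reductase and the enzyme whose activity *Lbr* shares, was at 11.9, 23.7 and 26.5 CPM in fl/fl and at 6.96, 9.84 and 12.9 CPM in iADKO. Its log2 fold change was -1.09 (standard error 0.174, adjusted p = 0.000775, edgeR), opposite in sign to that of *Lbr*. The groups overlapped through fl/fl replicate 5 and iADKO replicate 6, the libraries named above for their marker levels. *Cbx5*, which encodes HP1alpha, was lower by edgeR (log2 fold change -0.22, adjusted p = 0.00702), and its groups did not overlap, at 131 to 162.3 CPM in fl/fl and 116.7 to 130.5 CPM in iADKO.

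None of the 4 tested genes of the LEM domain and BAF kinase list was called, and all 4 had positive log2 fold changes, from 0.084 for *Ankle2* to 0.48 for *Ankle1*, which had at most 21 counts. In the list of other SUN and KASH genes, *Irag2*, a KASH protein of lymphoid cells, was higher at 0.74 (adjusted p = 0.00228) and *Spag4*, a SUN protein best known from testis, was lower at -0.64 (adjusted p = 0.0424), with at most 66 counts per library, both by edgeR. Of 5 T cell and 5 B cell markers, 3 and 2 were higher in iADKO and none was lower, and their part in the *Irag2* difference was not tested. *Syne3*, the third widely expressed nesprin, was not called (-0.20, adjusted p = 0.32, edgeR). *Kash5* and *Sun3*, which serve in germ cells, had at most 3 and 1 counts in any library and were not tested.

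Of the 6 torsin genes, only the membrane activators *Tor1aip1* (LAP1) and *Tor1aip2* (LULL1) were called. *Tor1aip1* was at 128 to 138 CPM in fl/fl and 117 to 127 CPM in iADKO, and *Tor1aip2* at 146 to 161 CPM and 127 to 144 CPM, so the groups did not overlap for either. Both changes were small, with log2 fold changes of -0.13 (adjusted p = 0.0221) and -0.14 (adjusted p = 0.0285) by edgeR.

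Of 10 other envelope membrane genes, 2 were higher and 3 lower. The largest changes were in the adipocyte-linked pair *Tmem120b* (log2 fold change -1.13, adjusted p = 0.00052) and *Tmem120a* (-0.77, adjusted p = 0.00163), followed by *Nemp2* (0.39, adjusted p = 0.0194) and *Tmem201* (-0.33, adjusted p = 0.00752), all by edgeR. The other gene called, *Nemp1* (0.27, adjusted p = 0.00671, edgeR), was the only one of these 5 whose groups did not overlap. The lower level of *Tmem120a* and *Tmem120b* stood beside the lower adipocyte markers, whose part was not tested. Of 7 envelope sealing genes, *Vps4a* was lower (-0.16, adjusted p = 0.0384) and *Ist1* higher (0.12, adjusted p = 0.0456), and of 8 cytoskeletal partners of LINC only *Klc2*, a kinesin light chain, was lower (-0.41, adjusted p = 0.0127), by edgeR. Plectin (*Plec*), which joins nesprin-3 to intermediate filaments, and the dynein and kinesin heavy chain genes *Dync1h1* and *Kif5b* were not called.

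**Figure D5:**
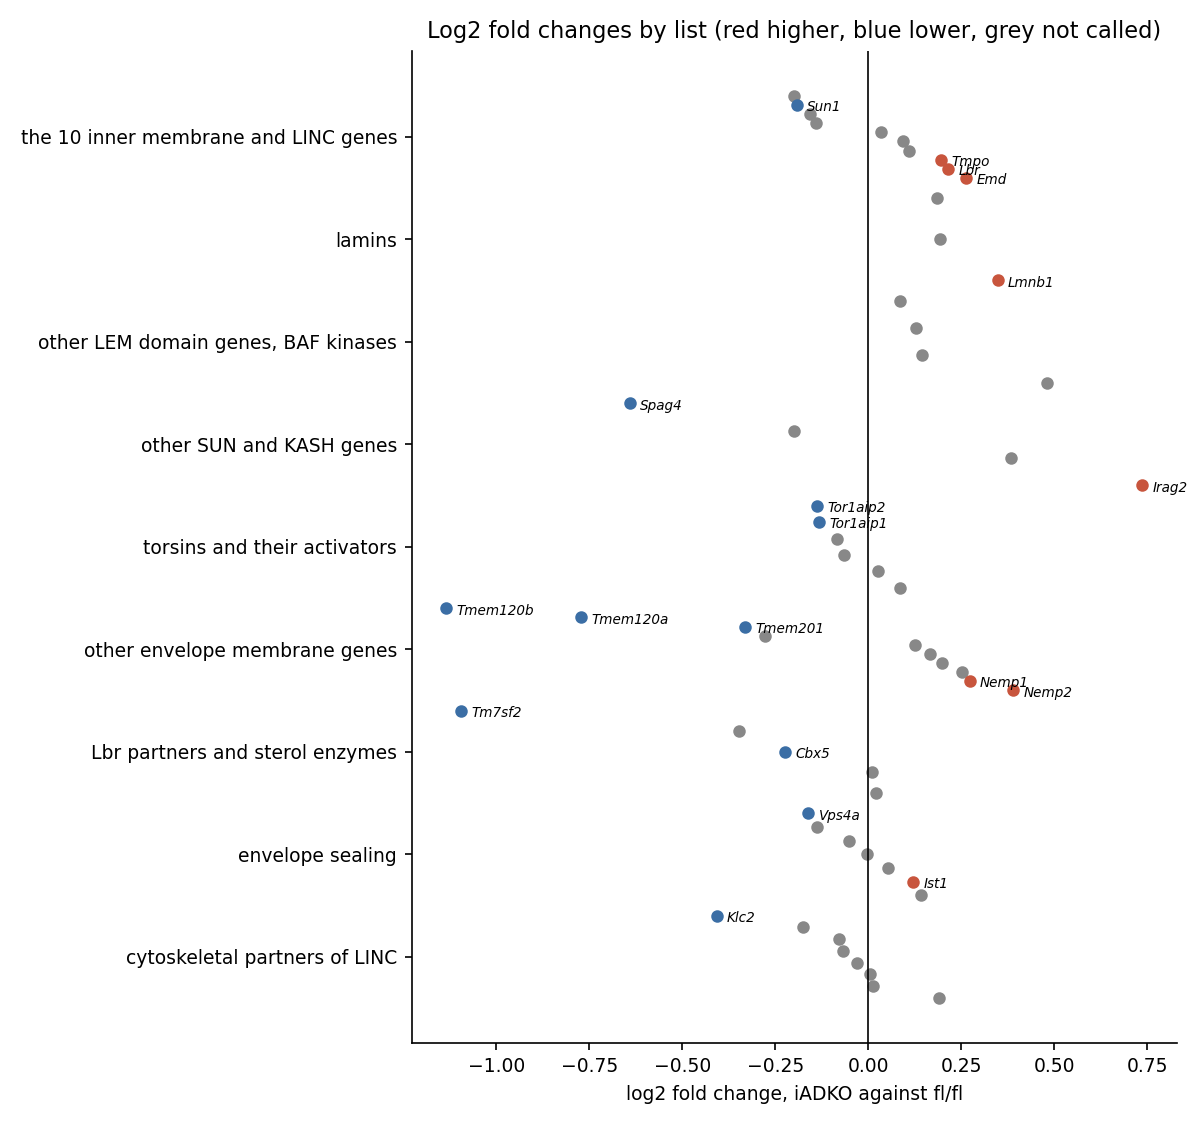
Log2 fold change of iADKO against fl/fl (x axis) for each tested gene of the 10 inner membrane and LINC genes and of the 8 other envelope lists (y axis), red where higher, blue where lower and grey where not called at an adjusted p of 0.05, with called genes named. *Tmem120b*, *Tm7sf2*, *Tmem120a*, *Irag2* and *Spag4* lie farther from 0 than any of the 10 genes in the top row.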

How the data were processed

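RNA was taken from whole pmWAT, and strand-specific mRNA libraries were sequenced. Per the labels and the study's methods, the authors checked reads with FastQC 0.12.1, aligned them with STAR 2.7.11a to mm39 and used DESeq2; the counting tool and its strand setting are not given in the sources used here. The authors deposited raw read counts per Ensembl gene, without normalization, and log2 values (rlog, from DESeq2), which served in 1 alternative. Gene names and coordinates came from GENCODE vM39 on GRCm39, which held 33184 of the 33618 identifiers.

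In R 4.3.3, genes passing edgeR 4.0.16's filterByExpr were normalised by TMM and tested by the robust quasi-likelihood test, with Benjamini-Hochberg adjustment at 0.05. CPM are TMM-normalised, with a prior count of 2 on the log2 scale. Standard errors come from the fold change and the test statistic. Ratios used counts plus 0.5 and an exact two-sided permutation test over splits into 7 and 6. The errors given are the spread between libraries, which includes counting error. The members and lists were chosen with earlier results of these data known. Named beyond the 10 members are *Lmna*, up to 4 called genes per other list with the largest changes, the adipocyte and macrophage markers as lists, and each member's most correlated gene. *Lmnb2*, *Nemp1*, *Ankle1*, *Ankle2*, *Syne3*, *Kash5*, *Sun3*, *Plec*, *Dync1h1*, *Kif5b* and the genes overlapping members were named after their values were seen. The proliferation, T cell and B cell marker lists were also named outside this rule. Of the remaining marker lists, neutrophil had 1 gene higher and endothelial 2 lower. The progenitor, mesothelial, smooth muscle and skeletal muscle lists had none called.

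The alternatives were DESeq2 1.42.0, its size factors, no filter, at least 10 counts in every library, replicate number as a block, number run as a block, limma 3.58.1 on rlog, no mitochondrially encoded genes, 1 surrogate variable (sva 3.50.0), ratio pseudocounts and each library left out. Libraries of a group differed by more than counting noise (chi-square per degree of freedom 5.94 to 61.1). On simulated counts for this comparison (16534 genes), the test recovered 74% of genes changed by 1 and 45% of those changed by 0.5 on the log2 scale, with 5.56% of calls false.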

Additional observations from a re-analysis of the deposited data

Results flagged for a closer look

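Dixon's test for a library apart from the rest of its group marked 6 of 56 group values examined among the members and named envelope genes, and chance alone marks about 1 in 20. None was a value of the 10 members. *Lmnb1* in iADKO replicate 2 was at 20.3 CPM, with the next library at 17.3 CPM. In fl/fl replicate 5, *Klc2* was at 16.04 CPM (next 23.7) and *Tmem120b* at 88.9 CPM (next 149.8). In iADKO replicate 6, *Tmem120b* was at 99.8 CPM (next 71.3), *Irag2* at 20.8 CPM (next 26.9) and *Spag4* at 2.995 CPM (next 1.92). In fl/fl replicate 5 and iADKO replicate 6 these genes lay toward the other group, as did the summed adipocyte markers of the same libraries (10850 and 12560 CPM), whose part was not tested.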

How the results depend on the processing

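Of the 10 members 4 were called, of the other lists 15 genes, and of all genes 5104. With the number run as a block these were 0 (4 members and 11 other genes at an unadjusted p under 0.05), 0 and 54, by edgeR. With library 765 joined to the run 747 to 750, a choice made after seeing the data, they were 1 (*Emd*), 6 and 1986. With 1 surrogate variable they were 1 (*Emd*), 6 and 1646. Leaving out 1 library gave 3 to 5, 10 to 19 and 3998 to 6604. The replicate block was fitted without fl/fl replicate 7, whose number no iADKO library shares. It gave 3 members, 12 other genes and 4833 genes, ending the call of *Tmpo* (adjusted p = 0.0616, edgeR). Whether the numbers pair the samples is not stated. After each gene's group mean of log2 CPM was subtracted, same-numbered libraries correlated at -0.0265 to 0.217 over 6 pairs. Of these pairs, 3 were over 0.1, and 2 libraries correlated best with their own number. The mean was 0.107 for same-numbered pairs and -0.02 for other pairs, which neither shows nor excludes a pairing. Without fl/fl replicate 5 and iADKO replicate 6 the counts were 5, 19 and 7192, and *Lemd3* was reversed at -0.012.

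Over 24 alternatives *Emd* passed in 23, *Lbr* in 21, *Sun1* in 20, *Tmpo* in 12 and *Sun2* in 7, and the remaining 5 members in 0. *Tmpo* also lost its call with no filter (adjusted p = 0.0788, edgeR). With libraries left out, the log2 ratio differences were -0.035 to 0.077 for *Lbr* against *Lmna*, reversed without fl/fl replicate 1 (-0.035) and iADKO replicate 6 (-0.032), -0.097 to -0.050 for *Syne1* against *Syne2*, and -0.053 to -0.0073 for *Sun1* against *Sun2*. The cause was not tested for any of these. Changes of 0.5 on the log2 scale were often missed in simulation, but few genes were changed there. The share missed does not carry over to the members. The members' changes were smaller, and their 95% intervals in the main edgeR fit lay between -0.42 (*Syne1*) and 0.38 (*Emd*). These intervals, not adjusted for multiple testing, exclude a change of 0.5 in either direction.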
